A study of Mus musculus with 9 samples.

Results

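The genes described are 7 mouse genes of the enzymes that hydroxylate proline and lysine in collagen: P4ha1, P4ha2, P4hb, Plod1, Plod2, Plod3 and P3h1. They were chosen by protein family, with earlier results of these libraries known, the difference between the temperatures among them, and no threshold was used. The values and calls below therefore describe them and are no independent support for the choice. They are 7 of 55573 genes in the count tables, and all 7 were among the 13328 genes with enough counts to be tested. RNA was sequenced from splenic CD4+ T cells of B6 mice, 3 libraries in each of 3 groups: activated at 39 °C, a febrile temperature, activated at 37 °C, and naive. The activated cells were kept for 3 hours on plate-bound anti-CD3 and anti-CD28, antibodies that stand in for the antigen and costimulatory signals, and naive cells were not activated. All cells came from mice of the same strain, with no altered gene or drug named in the labels. The labels call the plated material spleen cells and its source CD4+ T cells, so the cells other than CD4+ T cells that were present during activation are not known. Library totals were 12647692 to 17605549 counts. Whether libraries of 1 group stem from different animals or cultures is not stated, and the p-values rest on the spread among libraries, which may be technical.

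Collagen chains are modified in the endoplasmic reticulum before they fold into a triple helix. Prolyl 4-hydroxylase is a complex of a catalytic alpha subunit, encoded by P4ha1 or P4ha2 among others, and a beta subunit, P4hb, which is protein disulfide isomerase and also folds many other proteins. Its product, 4-hydroxyproline, keeps the helix stable at body temperature. The lysyl hydroxylases, encoded by the Plod genes, make the hydroxylysine used in cross-links and, for Plod3, also add sugars to it, while P3h1 hydroxylates prolines at a few sites together with Crtap and cyclophilin B. These enzymes need iron, oxygen, 2-oxoglutarate and ascorbate, and several of their genes are known targets of hypoxia-inducible factor (HIF). T cells are not a main source of fibrillar collagen, and the prolyl 4-hydroxylase also acts on other proteins with collagen-like repeats and, in human cells, on the RNA-silencing protein Argonaute 2.

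Activation at 39 °C gave lower levels of both catalytic prolyl 4-hydroxylase subunits and of 1 lysyl hydroxylase than activation at 37 °C. P4ha1 stood at 0.495-fold, Plod1 at 0.455-fold and P4ha2 at 0.301-fold of its 37 °C level. The beta subunit P4hb, Plod3 and P3h1 overlapped between the temperatures and were not called. By edgeR's quasi-likelihood test, adjusted over all tested genes, 3 of the 7 were lower and 0 higher at 39 °C, where 0.623% of all tested genes were lower and 0.135% higher. The same 3 were called by DESeq2. Leaving out 1 library gave 2 or 3 called members, while the count over all genes, 101, was 291 without naive library 1, 152 without naive library 2, and 37 to 51 without any 1 activated library. The median log2 fold change of the 7 was -0.42, against 0.0041 over all tested genes. That median is the value of Plod2, a gene of few counts that was not called, and it stands between the 3 called genes, at -1.02 or lower, and the other 3, which lay from -0.068 to 0.020.

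**Figure D1:**
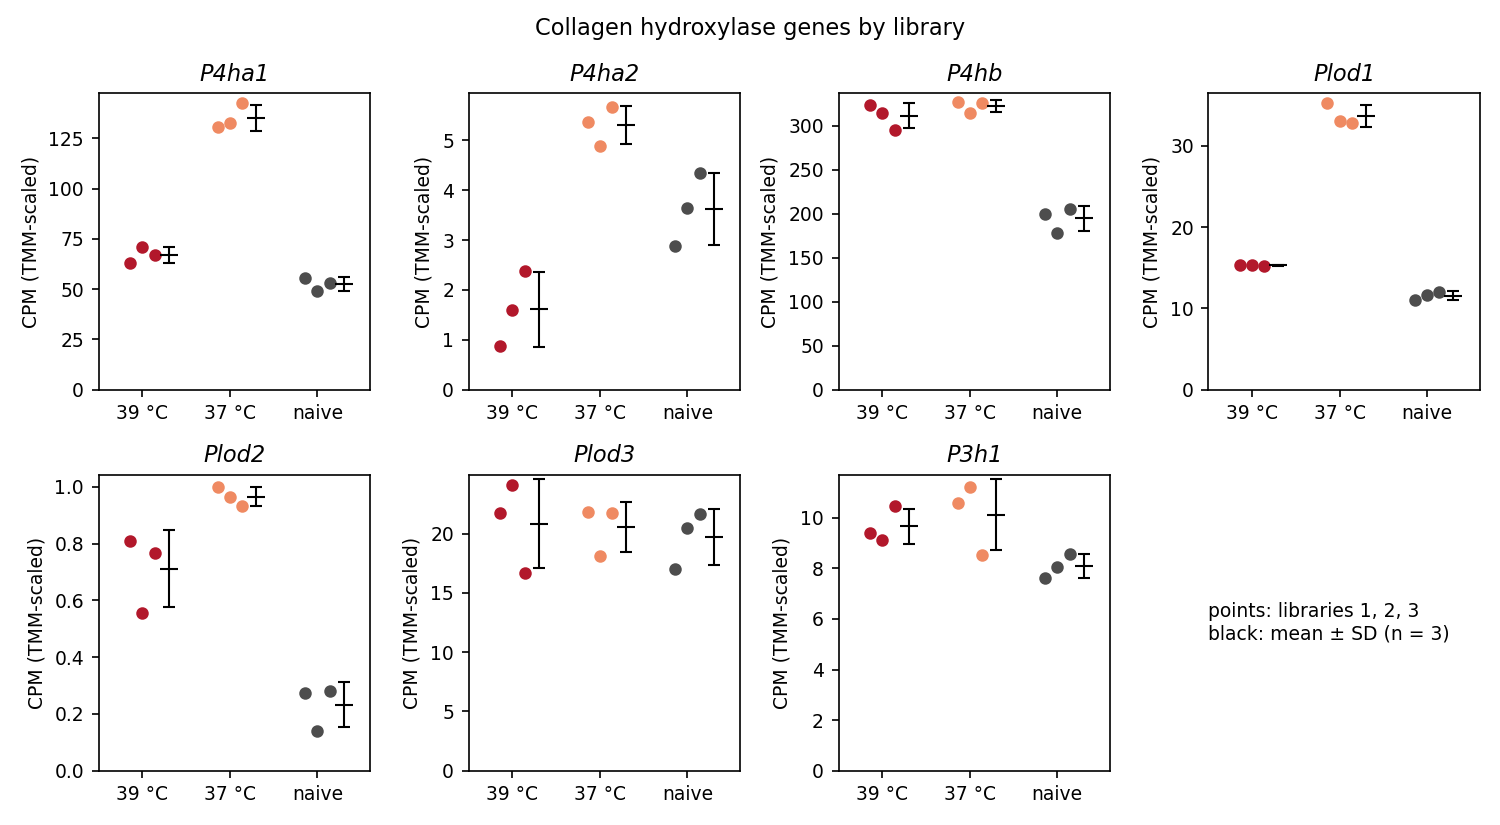
Level of each gene in CPM (counts scaled to library size, with TMM factors) in each library, with 39 °C left, 37 °C in the middle and naive right; points are libraries and black marks are the mean ± SD (n = 3). P4ha1, P4ha2 and Plod1 are lower at 39 °C than at 37 °C with no overlap, whereas P4hb, Plod3 and P3h1 overlap between the temperatures.

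P4ha1, the main catalytic alpha subunit in most tissues (ENSMUSG00000019916, chromosome 10, 59323296 to 59373304, plus strand, GRCm38), had 63.2, 70.9 and 66.9 CPM (raw counts divided by library size, with TMM scaling factors) in the 39 °C libraries. It had 131, 133 and 143 CPM in the 37 °C libraries and 55.7, 48.9 and 53.1 CPM in naive libraries. The 3 groups did not overlap, and the 39 °C libraries lay much nearer to the naive than to the 37 °C ones. The log2 fold change was -1.02 ± 0.073 for 39 °C over 37 °C (adjusted p = 3.34e-05, edgeR; here and below ± beside a fold change is the standard error of the fit, n = 3 per group). It was 1.36 ± 0.074 for 37 °C over naive (adjusted p = 1.66e-08) and 0.35 ± 0.074 for 39 °C over naive (adjusted p = 0.00156). The activation contrasts share the naive libraries, and the temperature contrast shares a group with each.

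P4ha2, the other measured alpha subunit (ENSMUSG00000018906, chromosome 11, 54100095 to 54131665, plus strand), was a low gene with 14, 20 and 34 raw counts in the 39 °C libraries. The 37 °C libraries had 75, 71 and 73 counts and the naive libraries 42, 52 and 77. In CPM these were 0.872, 1.59 and 2.37 at 39 °C, 5.36, 4.89 and 5.67 at 37 °C, and 2.89, 3.65 and 4.34 in naive cells. The groups did not overlap, and unlike P4ha1 this gene was lowest at 39 °C. Its log2 fold change was -1.73 ± 0.28 for 39 °C over 37 °C (adjusted p = 0.0133, edgeR) and -1.19 ± 0.29 for 39 °C over naive (adjusted p = 0.00369). The call between the temperatures was lost without 37 °C library 1 (adjusted p = 0.0797) or 3 (adjusted p = 0.0705) or 39 °C library 2 (adjusted p = 0.0922), with log2 fold changes of -1.72, -1.68 and -1.73. Over naive cells the 37 °C value of 0.54 ± 0.25 was not called (adjusted p = 0.0756). It was called in 5 of 16 alternative fits, all by edgeR, with log2 fold changes of 0.53 to 0.57. These were the fit of the 6 libraries of that contrast alone (adjusted p = 0.0315), the fit with a replicate block (0.0326), the fit of every gene with any count (0.0374), and those without 39 °C library 1 (0.0355) or 3 (0.041).

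Plod1, a lysyl hydroxylase of the collagen helix (ENSMUSG00000019055, chromosome 4, 147909753 to 147936767, minus strand), had 15.3, 15.3 and 15.3 CPM in the 39 °C libraries. It had 35.2, 33.1 and 32.8 CPM in the 37 °C libraries and 10.999, 11.71 and 12.01 CPM in naive libraries. Its order matched that of P4ha1, with 37 °C highest, naive lowest and no overlap. The log2 fold change was -1.14 ± 0.079 for 39 °C over 37 °C (adjusted p = 2.85e-05, edgeR), 1.54 ± 0.081 for 37 °C over naive (adjusted p = 1.27e-08) and 0.40 ± 0.085 for 39 °C over naive (adjusted p = 0.00141). Among the 83 genes called lower at 39 °C, Plod1 ranked 4 and P4ha1 5 by p-value, and by size of the fall P4ha2 ranked 7, Plod1 18 and P4ha1 25. In bulk libraries less RNA per cell and fewer cells carrying it cannot be told apart.

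The sequence just before the transcription start is shown for these 3 genes and for P4hb, the subunit that did not move with them. Each run is the 250 bases before the RefSeq start in GRCm38.p6, written 5′ to 3′ on the strand of the gene. Capitals mark ACGTG or GCGTG on either strand (CACGT or CACGC as printed), the core letters of a hypoxia response element. The windows are chr10:59323046-59323295 (plus strand) for P4ha1, chr11:54100674-54100923 (plus) for P4ha2, chr4:147936777-147937026 (minus) for Plod1 and chr11:120573254-120573503 (minus) for P4hb. The P4ha2 window lies inside that gene as GENCODE draws it, in no annotated exon.
P4ha1: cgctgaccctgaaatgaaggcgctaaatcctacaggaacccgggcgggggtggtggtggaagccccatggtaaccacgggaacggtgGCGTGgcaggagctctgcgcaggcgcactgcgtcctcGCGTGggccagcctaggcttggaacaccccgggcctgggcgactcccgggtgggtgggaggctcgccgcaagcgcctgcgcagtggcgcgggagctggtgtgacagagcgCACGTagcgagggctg
P4ha2: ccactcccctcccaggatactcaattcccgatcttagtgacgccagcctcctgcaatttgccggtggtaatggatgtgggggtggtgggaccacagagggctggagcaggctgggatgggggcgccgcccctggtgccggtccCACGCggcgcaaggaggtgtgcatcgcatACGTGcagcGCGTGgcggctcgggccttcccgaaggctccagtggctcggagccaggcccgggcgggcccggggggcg
Plod1: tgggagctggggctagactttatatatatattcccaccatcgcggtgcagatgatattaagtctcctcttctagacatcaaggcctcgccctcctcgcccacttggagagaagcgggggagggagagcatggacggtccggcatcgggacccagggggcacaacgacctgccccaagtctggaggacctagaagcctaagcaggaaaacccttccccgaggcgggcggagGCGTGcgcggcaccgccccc
P4hb: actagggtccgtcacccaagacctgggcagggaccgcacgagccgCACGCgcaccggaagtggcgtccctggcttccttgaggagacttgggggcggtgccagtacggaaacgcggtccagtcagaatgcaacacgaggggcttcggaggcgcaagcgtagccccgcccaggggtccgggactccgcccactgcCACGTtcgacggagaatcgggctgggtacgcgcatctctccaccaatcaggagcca

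The core letters occurred 3 times in the P4ha1 window, 3 times in the P4ha2 window, 1 time in the Plod1 window and 2 times in the P4hb window. Of 32851 RefSeq windows of 250 bases, 38.6% held at least 1 match, 16.7% at least 2 and 1.01% at least 5. The shares with at least 3 or at least 4 were not counted. A match was present as well before Plod3, with 4, and in both RefSeq windows of P3h1, with 2 each, so matches stood before genes that differed between the temperatures and before genes that were not called. A heat shock element core, GAANNTTC or TTCNNGAA (each its own reverse complement), was found in 1 of these windows, that of P4ha2, as TTCCCGAA 52 to 45 bases before the start, and in 12.8% of all windows. These matches describe letters, not binding. RefSeq windows were matched for 6 of the 7 genes, all but Plod2.

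P4hb, the beta subunit and disulfide isomerase (ENSMUSG00000025130, chromosome 11, 120560298 to 120573253, minus strand), had 324, 314 and 296 CPM in the 39 °C libraries, 327, 315 and 326 CPM in the 37 °C libraries, and 199, 179 and 206 CPM in naive libraries. The 2 temperatures overlapped, and both lay above naive. The log2 fold change of 39 °C over 37 °C was -0.051 ± 0.071, with a 95% interval of -0.21 to 0.10 that leaves out a fall of the size seen in P4ha1. Over naive cells P4hb rose by 0.68 ± 0.072 at 39 °C (adjusted p = 6.35e-06, edgeR) and by 0.73 ± 0.072 at 37 °C (adjusted p = 3.15e-06), both on the log2 scale.

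Per kilobase of annotated exon P4hb was far above P4ha1 in every group, Plod3, Plod1 and P3h1 followed in an order that differed between groups, and P4ha2 and Plod2 were lowest. In RPKM, P4hb averaged 109 ± 5.01 at 39 °C, 113 ± 2.31 at 37 °C and 68.0 ± 4.95 in naive cells (SD, n = 3). P4ha1 averaged 16.3 ± 0.932, 32.9 ± 1.57 and 12.8 ± 0.827 RPKM at 39 °C, at 37 °C and in naive cells. P4ha2 averaged 0.258 ± 0.120, 0.851 ± 0.0624 and 0.581 ± 0.117 RPKM in the same order, so P4ha1 made up nearly all alpha subunit RNA. Mean levels of Plod1 and Plod3 were 2.26 and 4.61 RPKM at 39 °C, 4.98 and 4.55 RPKM at 37 °C, and 1.71 and 4.36 RPKM in naive cells. At 37 °C their libraries lay next to each other, Plod1 at 4.84 to 5.21 and Plod3 at 4.01 to 4.82 RPKM, a gap smaller than the SD of either gene. P3h1 averaged 2.51 ± 0.181, 2.63 ± 0.365 and 2.10 ± 0.122 RPKM at 39 °C, at 37 °C and in naive cells, above Plod1 in every library at 39 °C and in naive cells and below it at 37 °C. Plod2 averaged 0.132 ± 0.0251, 0.179 ± 0.00637 and 0.0431 ± 0.0148 RPKM in these groups. The ratio of P4hb to the sum of both alpha subunits was 7.30, 6.28 and 6.21 in the 39 °C libraries, 3.50, 3.33 and 3.20 in the 37 °C libraries, and 4.98, 5.00 and 5.29 in naive libraries. The groups did not overlap, and the ratio was highest at 39 °C and lowest at 37 °C.

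**Figure D2:**
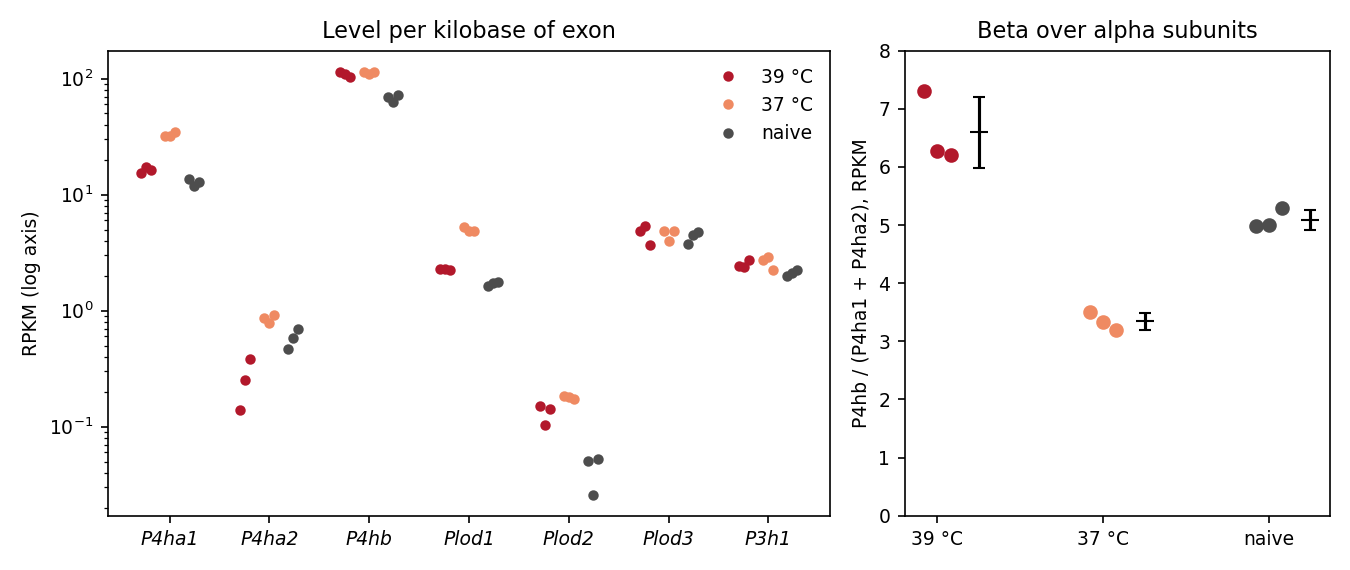
Left, level per kilobase of exon (RPKM, log axis) of the 7 genes, 1 point per library, with 39 °C, 37 °C and naive from left to right within each gene. Right, the ratio of P4hb to P4ha1 plus P4ha2 in RPKM per library, with the mean ± SD (n = 3); the 39 °C libraries lie between 6.21 and 7.30 and the 37 °C libraries between 3.20 and 3.50.

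Plod2, the lysyl hydroxylase of the telopeptides (ENSMUSG00000032374, chromosome 9, 92542223 to 92608428, plus strand), was close to the limit of detection. It had 13, 7 and 11 raw counts in the 39 °C libraries, 14, 14 and 12 in the 37 °C libraries, and 4, 2 and 5 in naive libraries. Both activated groups lay above naive, and the temperatures did not overlap in CPM, with 0.556 to 0.810 at 39 °C and 0.932 to 1.0003 at 37 °C. The log2 fold change between the temperatures, -0.42 ± 0.30, was not called (adjusted p = 0.852, edgeR), and its interval of -1.09 to 0.24 spans both no difference and a fall as deep as that of P4ha1. Over naive cells Plod2 rose by 1.57 ± 0.39 at 39 °C (adjusted p = 0.00404) and by 2.00 ± 0.37 at 37 °C (adjusted p = 0.000528), both on the log2 scale. All naive counts lay below the filter's minimum count of 10, so Plod2 passed the filter only through the activated libraries. The rise over naive thus describes a gene that was kept because it was high in activated cells. With Plod2 counted, 4 of the 7 genes did not overlap between the temperatures, against 20.9% of all tested genes.

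Plod3, which also carries glycosyltransferase activity (ENSMUSG00000004846, chromosome 5, 136987019 to 136996648, plus strand), was not called in any contrast by edgeR. It had 21.7, 24.1 and 16.7 CPM in the 39 °C libraries, 21.8, 18.1 and 21.7 CPM in the 37 °C libraries, and 17.0, 20.5 and 21.7 CPM in naive libraries. All 3 groups overlapped, and the log2 fold change of 39 °C over 37 °C was 0.020 ± 0.14, with an interval of -0.29 to 0.33. The gene Znhit1 on the other strand shares 11.7% of the exonic length of Plod3, and the strand setting of the counting is not given, so reads of the pair may not be separated. Plod2 shares 6.42% of its exonic length with the gene model Gm38391 on the other strand.

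P3h1, the prolyl 3-hydroxylase (ENSMUSG00000028641, chromosome 4, 119232915 to 119248975, plus strand), had 9.41, 9.14 and 10.5 CPM in the 39 °C libraries, 10.6, 11.2 and 8.54 CPM in the 37 °C libraries, and 7.63, 8.06 and 8.57 CPM in naive libraries. The temperatures overlapped (-0.068 ± 0.13, interval -0.34 to 0.21). The call of a rise at 37 °C over naive, 0.32 ± 0.13 (adjusted p = 0.0426, edgeR), was lost in 12 of 16 alternative fits, among them DESeq2 (adjusted p = 0.123). Leaving out 37 °C library 1 or 2, 39 °C library 1 or 2, or any naive library was enough, with log2 fold changes of 0.25 to 0.37.

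Over naive cells, 4 of the 7 genes were higher and 1 lower at 39 °C, where 29.2% of all tested genes were higher and 29.8% lower. At 37 °C 5 were higher and 0 lower, against 30.9% and 31.8% of all tested genes. Plod2, counted as higher at both temperatures, passed the count filter only through the activated libraries. P4ha2 was the gene whose direction over naive differed between the temperatures, with -1.19 at 39 °C and 0.54 at 37 °C, the second not called.

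**Figure D3:**
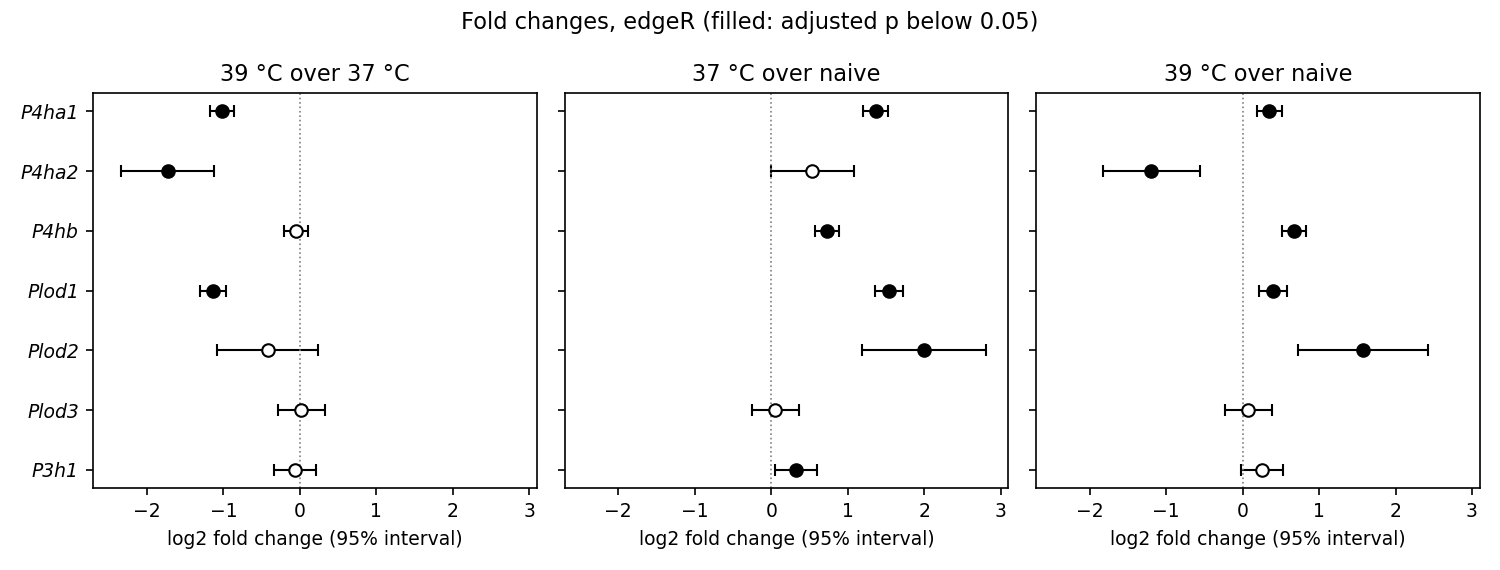
Log2 fold change of each gene for 39 °C over 37 °C, 37 °C over naive and 39 °C over naive, with 95% intervals; filled points have an adjusted p below 0.05 (edgeR, n = 3 per group). In the left panel P4ha1, P4ha2 and Plod1 lie at -1.02, -1.73 and -1.14 with the other intervals crossing 0.

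Genes that act with these enzymes were compared next. Between the temperatures 0.135% of all tested genes were called higher and 0.623% lower, and 1061 of 13328 had an unadjusted p under 0.05 (edgeR). At these shares a list as short as those below would seldom hold a call. Of 12 other genes of collagen modification and folding, 4 had enough counts, and 0 were called between the temperatures by edgeR (0 at unadjusted p under 0.05, 0 by DESeq2). Crtap, the partner of P3h1, rose by 0.54 ± 0.11 at 39 °C (adjusted p = 0.000901, edgeR) and 0.34 ± 0.11 at 37 °C (adjusted p = 0.0163) over naive cells. Colgalt1, which adds galactose to hydroxylysine, rose by 0.50 ± 0.093 and 0.49 ± 0.093 (adjusted p = 0.000537 and 0.000593). Ppib, which encodes cyclophilin B, stood at -0.13 ± 0.076 at 39 °C (adjusted p = 0.159) and fell by 0.29 ± 0.076 at 37 °C (adjusted p = 0.00563). The collagen chaperone gene Serpinh1 and the alpha subunit gene P4ha3 were below the count filter.

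Of 16 collagen and lysyl oxidase genes only Col18a1 had enough counts. It encodes a basement membrane collagen and averaged 3.88 ± 0.512 CPM at 39 °C, 5.60 ± 0.822 CPM at 37 °C and 0.606 ± 0.208 CPM in naive cells (SD, n = 3). Its log2 fold change was 2.63 ± 0.26 for 39 °C over naive (adjusted p = 3.44e-06, edgeR) and 3.16 ± 0.25 for 37 °C over naive (adjusted p = 4.54e-07). The naive libraries, at 0.481, 0.491 and 0.846 CPM, were too low for the gene to pass the count filter through them. Like that of Plod2, this rise thus describes a gene that was kept because it was high in activated cells. Between the temperatures it stood at -0.53 ± 0.19 and was not called (unadjusted p = 0.0172, adjusted p = 0.443, edgeR). Its libraries did not overlap, with 3.50 to 4.46 CPM at 39 °C and 4.72 to 6.34 CPM at 37 °C, as was so for 20.9% of all tested genes.

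The partners and cofactor genes of the hydroxylases did not give calls between the temperatures, where 0.135% of all tested genes were called higher and 0.623% lower. Few calls would be met in lists of this length at those shares. Of 11 tested genes of the disulfide isomerase family and its oxidases, 0 were called by edgeR (0 at unadjusted p under 0.05, 0 by DESeq2), with log2 fold changes of -0.099 to 0.15. Of 14 endoplasmic reticulum chaperone and unfolded protein response genes, 0 were called (3 at unadjusted p under 0.05, 0 by DESeq2), with -0.22 to 0.19. The oxidase gene Ero1l rose over naive by 0.82 ± 0.071 at 39 °C and 0.92 ± 0.071 at 37 °C, and Pdia6 by 0.90 ± 0.081 and 0.84 ± 0.081, while Tmx4 fell by 0.54 ± 0.074 and 0.46 ± 0.074. The chaperone gene Hspa5 rose by 0.90 ± 0.066 and 0.88 ± 0.066, Hyou1 by 1.09 ± 0.090 and 1.14 ± 0.090, Canx by 0.99 ± 0.071 and 1.18 ± 0.071, and Hsp90b1 by 0.65 ± 0.063 and 0.86 ± 0.063, in the same order. P4hb moved over naive cells by a size between those of the other genes of its family. The ascorbate transporter gene Slc23a2 rose over naive by 0.81 ± 0.098 at 39 °C and 0.95 ± 0.098 at 37 °C, and 0 of 3 tested ascorbate genes were called between the temperatures (0 at unadjusted p under 0.05, 0 by DESeq2).

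The enzymes of the same chemistry and the targets of HIF likewise gave no edgeR call between the temperatures. The same shares over all tested genes, 0.135% higher and 0.623% lower, apply to them. Of 14 other 2-oxoglutarate dioxygenase genes, 0 were called (0 at unadjusted p under 0.05, 0 by DESeq2), with a median of -0.036. Over naive, P4htm, a transmembrane prolyl hydroxylase, fell by 1.38 ± 0.15 at 39 °C and 1.61 ± 0.15 at 37 °C, and the DNA demethylase gene Tet1 fell by 2.76 ± 0.21 and 2.74 ± 0.21, whereas Riox1 rose by 0.92 ± 0.093 and 0.96 ± 0.093. Of 20 HIF targets other than the members, 0 were called by edgeR (3 at unadjusted p under 0.05), and DESeq2 called Pdk1, higher at 39 °C by 0.24 on the log2 scale (adjusted p = 0.0236). Their median was -0.038. HIF targets split over naive cells, with 8 higher and 8 lower at 39 °C and 9 higher and 8 lower at 37 °C. All tested genes were split evenly too, with 29.2% higher and 29.8% lower at 39 °C and 30.9% and 31.8% at 37 °C. The growth factor gene Vegfa rose by 4.69 ± 0.11 at 39 °C and 4.84 ± 0.11 at 37 °C and Ndrg1 by 2.46 ± 0.072 and 2.22 ± 0.072, while Pdk1, a kinase that restrains pyruvate oxidation, fell by 1.89 ± 0.059 and 2.14 ± 0.059. Egln1 and Egln3, prolyl hydroxylases that act on HIF itself, stand in both lists.

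**Figure D4:**
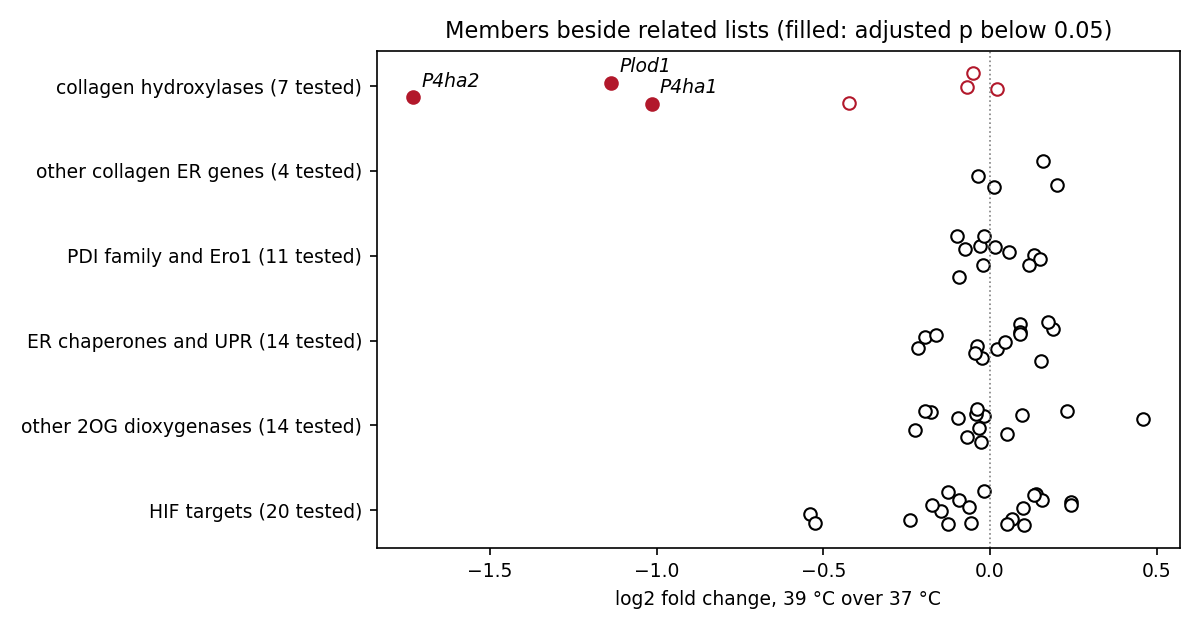
Log2 fold change of 39 °C over 37 °C for each tested gene of the 7 collagen hydroxylases (red) and of 5 related lists (black), 1 point per gene with random vertical spread; filled points have an adjusted p below 0.05 by edgeR. The filled points are P4ha2, Plod1 and P4ha1, and the related lists lie between -0.54 and 0.46.

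The genes with the nearest pattern were found by the root mean square difference of log2 CPM over the 9 libraries, each gene centred on its own mean. For Plod1 the nearest was Gprasp1, which sorts G protein-coupled receptors, at 0.102, against an own spread of Plod1 of 0.649, followed by the transcription regulator gene Prdm16 (0.147) and Tmc4 (0.163). For P4ha1 they were the clone-named gene AC125093.1 (0.145), Gprasp1 (0.178) and the lipid droplet gene Plin2 (0.185), against an own spread of 0.582. AC125093.1 was not called between the temperatures, with a log2 fold change of -1.16 for 39 °C over 37 °C (adjusted p = 0.219, edgeR). Gprasp1 had a log2 fold change of -1.24 for 39 °C over 37 °C (adjusted p = 1.1e-05, edgeR), Plin2 -1.10 (adjusted p = 0.00308), Tmc4 -1.10 (adjusted p = 0.00104) and Prdm16 -1.02 (adjusted p = 0.0128). Because these genes were picked for likeness over the same libraries, falls of this size follow from the choice and are no separate result. The nearest to P4ha2 were farther off, with Pla2g4b, Deptor and Rtl5 at 0.455 to 0.459 against an own spread of 0.800. Pla2g4b, Deptor and Rtl5 were not called between the temperatures (adjusted p = 0.634 to 0.686, edgeR). For P4hb, Wdr73 (0.0407), Wsb2 (0.0465) and the splicing factor gene Prpf31 (0.0468) were nearest. For Plod2 they were Cacybp (0.157), the serine synthesis gene Psph (0.169) and Pmepa1 (0.171), for Plod3 Trav12-2, Gna11 and Acot8 (0.0377 to 0.112), and for P3h1 Baiap2, Nat8f4 and Edrf1 (0.0654 to 0.0748). Own spreads were 0.339 for P4hb, 0.709 for Plod2, 0.171 for Plod3 and 0.177 for P3h1. Plod3 and P3h1 thus varied little, and small distances to them are no sign of a close match.

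Summed markers of other cells were lower in both groups of activated libraries than in naive ones. The sum of 11 B cell markers was 296 to 308 CPM at 39 °C, 270 to 282 CPM at 37 °C and 774 to 923 CPM in naive libraries, with the temperatures not overlapping, and edgeR called 0 of the 11 between the temperatures (3 at unadjusted p under 0.05, 0 by DESeq2). Unadjusted p between the temperatures lay under 0.05 for 1061 of all 13328 tested genes. Most of the B cell sum was Ighm, with means of 167 CPM at 39 °C, 147 CPM at 37 °C and 631 CPM in naive cells. Fcer2a went the other way, with means of 42.4 CPM at 39 °C, 36.5 CPM at 37 °C and 14.4 CPM in naive cells, and rose over naive by 1.55 ± 0.098 at 39 °C (adjusted p = 6.8e-08, edgeR) and 1.34 ± 0.099 at 37 °C (adjusted p = 2.45e-07). Sums of 11 myeloid markers were 9.62 to 13.3, 9.16 to 12.2 and 19.6 to 25.8 CPM, and of 10 erythroid and platelet markers 9.54 to 9.90, 9.29 to 9.65 and 141 to 231 CPM, in the same group order. In activated libraries most of these sums was Cd68 (means 8.25, 8.20 and 7.28 CPM) and Itga2b (6.26, 6.36 and 6.68 CPM), neither called over naive. Of the tested markers, 4 of 5 myeloid and 5 of 6 erythroid and platelet ones were called lower than naive at both temperatures. Over all tested genes 29.8% were lower at 39 °C and 31.8% at 37 °C. Lyz2, Itgam, Itgax, Hbb-bt, Hba-a2 and Alas2 needed the naive libraries to pass the count filter, with activated means of at most 0.477 CPM. Their fall thus describes genes that were kept because they were high in naive cells. Sums of 8 endothelial markers, nearly all from Pecam1, which T cells also express, were 157 to 163, 131 to 136 and 296 to 299 CPM, and DESeq2, but not edgeR, called Pecam1 between the temperatures (0.25, adjusted p = 0.00999). Sums of 10 stromal markers, the cells with the highest collagen output, were 0.238 to 0.279 CPM at 39 °C and 0.0714 to 0.345 CPM at 37 °C, with 5 and 6 of the 10 at 0 counts. Naive library 2 stood apart with 28.8 CPM of stromal markers against 0.481 and 0.789 CPM in naive libraries 1 and 3, with none of the 10 at 0 over the naive group. Without naive library 2 the log2 fold changes over naive were 0.30 at 39 °C and 1.32 at 37 °C for P4ha1, 0.41 and 1.55 for Plod1, 0.62 and 0.67 for P4hb, and 1.34 and 1.76 for Plod2, all still called. Naive library 1 differed most from the others of its group in its counts over all genes (chi-square per degree of freedom 43.6 and 24.4, against 10.7 between naive libraries 2 and 3). Without it the values at 39 °C and 37 °C were 0.39 and 1.41 for P4ha1, 0.37 and 1.51 for Plod1, 0.70 and 0.75 for P4hb, and 1.68 and 2.10 for Plod2, all still called. The part of these other cells in the differences described was not tested. Cd4 was at 606 to 627 CPM at 39 °C, 598 to 628 CPM at 37 °C and 730 to 848 CPM in naive libraries. The sum of 10 CD4+ T cell markers, Cd4 among them, went the other way. It was 5920 to 6362 CPM at 39 °C, 5830 to 6075 CPM at 37 °C and 4907 to 5760 CPM in naive libraries. The higher sum came from Cd5 (means 1298, 1263 and 536 CPM) and Zap70 (719, 707 and 298 CPM), in the same group order. Cd4, Cd3e, Cd3d, Cd3g, Lck and Lat had lower means in both activated groups than in naive cells. Over naive, edgeR called 2 of the 10 higher and 2 lower at 39 °C, and 3 higher and 3 lower at 37 °C.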

How the data were processed

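The deposited tables, 1 per library, hold raw counts of reads per gene as the authors made them, with no normalisation. Tools listed in the submitters' processing notes are HISAT2, HTSeq, FastQC and DESeq2, with GRCm38 as build. The roles, versions, annotation and strand setting are not given in the sources used here. The deposited tables carry names of the form that another aligner, STAR, writes, so which tools made the counts is not known. The labels' protocols name TRIzol and a TruSeq RNA kit. Symbols, exonic lengths and coordinates came from GENCODE M21 (GRCm38), which matched 55480 of 55573 identifiers, and promoter sequences from RefSeq (GRCm38.p6). Genes kept by filterByExpr (minimum count 10, minimum total 15) were normalised by TMM and fitted in 1 model of all 9 libraries by edgeR 4.0.16 in R 4.3.3 with quasi-likelihood F tests, 2-sided, adjusted by Benjamini-Hochberg over 13328 genes, threshold 0.05. The standard error is the fold change over the square root of its F statistic. RPKM is CPM per kilobase of merged exons. The script was checked on simulated counts. The members and all gene lists were chosen with earlier results of these data known. The genes named are the 7 members and the 3 nearest by pattern to each, passing over Gm and Rik models. Of each list other than the cell type markers, up to 3 called genes by adjusted p are named for each contrast. The cell type markers are given as sums, and the single markers named beside the sums were not chosen by that rule. Alternatives were RLE or library size scaling, every gene with any count, a mean of at least 1 CPM, DESeq2 1.42.0, a replicate block, the 6 libraries of a contrast alone, and leaving out each library. Groups of 3 are too small for the check of single outlying samples.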

Additional observations from a re-analysis of the deposited data

How the results depend on the processing

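Of 332 values of the 7 genes under 16 alternatives, 305 kept their direction and their side of the threshold, 15 lost a call, 5 gained one and 7 changed sign. P4ha1 and Plod1 kept every call, between -1.06 and -0.98 and between -1.16 and -1.10 for 39 °C over 37 °C. Between 2 and 3 members were called there when 1 library was left out. The sign changes were in values near 0 that were never called: without 37 °C library 2, Plod3 was at -0.063 and P3h1 at 0.015 for 39 °C over 37 °C; Plod3 was also at -0.016 without 39 °C library 1 and -0.091 without 39 °C library 2. Over naive, Plod3 was at -0.039 at 37 °C and -0.018 at 39 °C without naive library 1, and at -0.031 at 39 °C without 39 °C library 2. When 1 library was left out, Plod3 ranged from -0.091 to 0.16 and P3h1 from -0.17 to 0.015 for 39 °C over 37 °C, and Plod3 over naive from -0.031 to 0.22 at 39 °C and from -0.039 to 0.15 at 37 °C. The count over all genes for 39 °C against 37 °C, 101, became 176 with any count and 401 with the 6 libraries alone, and 37 to 291 when 1 library was left out; the cause was not tested. The highest count came without naive library 1, the library that differed most from its group; library pairs within the activated groups had a chi-square per degree of freedom over genes of 2.14 to 10, against 43.6 and 24.4 for its pairs. Whether the replicate numbers pair the libraries is not known. Same-numbered libraries at 39 °C and 37 °C correlated at 0.0433, -0.0211 and -0.171 in their deviations from the group means. With naive libraries the values for numbers 1 to 3 were 0.33, -0.0312 and 0.0133 at 39 °C, and 0.0256, 0.293 and -0.0484 at 37 °C. Differently numbered libraries of different groups ranged from -0.338 to 0.362, as wide a range, so these correlations cannot settle the pairing. With a replicate block the same 3 members were called between the temperatures (P4ha2 -1.76), 97 genes in all, the P3h1 call at 37 °C over naive was lost (0.32, adjusted p = 0.0584) and P4ha2 was called there (0.57, adjusted p = 0.0326). Plod2, at 2 to 14 counts per library, was below the 1 CPM filter and, for 39 °C over naive, below the filter of the 6 libraries alone, and depth limits what can be said of it and of P4ha2.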
